A study of Mus musculus with 10 samples.

Results

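The genes described here encode the machinery that transcribes every mRNA of the cell: the subunits of RNA polymerase II, the TATA-binding protein and its TFIID partners, the other general initiation factors, and factors that carry the polymerase through elongation. They were taken as 51 gene symbols, and all probe sets whose single symbol in the platform annotation was one of them were used. Of the 51 genes, 46 had such a probe set, 82 probe sets in all out of 45101 on the array. Polr2k, Polr2l, Taf9 and Supt4a stood only on probe sets that also carried another gene's symbol, and Gtf2h2 was on none that the annotation listed, so these 5 genes were not analysed here.

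RNA polymerase II cannot find a promoter by itself. TFIID binds promoter DNA through TBP, TFIIA and TFIIB steady it, TFIIF escorts the polymerase, and TFIIE recruits TFIIH. TFIIH opens the DNA, and its CDK7 kinase phosphorylates the tail of the largest polymerase subunit. Soon after initiation the polymerase pauses, and P-TEFb, the CDK9 kinase with cyclin T1 or T2, releases it into elongation. The growing mouse oocyte transcribes heavily and builds a store of mRNA for the embryo, and transcription shuts down as the oocyte reaches full size.

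The data were signals of mouse oocytes at the germinal vesicle stage, arrested in prophase of the first meiotic division, on single-colour Affymetrix arrays. The groups were 5 arrays of wild type oocytes and 5 of CTCF-depleted oocytes. CTCF is a DNA-binding zinc finger factor known for blocking enhancers at insulators and for anchoring chromosome loops. The comparison asks which transcripts depend on CTCF. The labels gave no method of depletion, strain, animal age or number of oocytes, and did not say whether samples came from separate animals. The p-values therefore rest on the variation seen among these arrays, and part or all of it may be technical. In such bulk samples fewer cells of a type and less RNA per cell cannot be told apart.

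Ctcf itself read 699.7 to 1070.6 in wild-type and 7.07 to 95.8 in depleted oocytes over its 2 probe sets, with log2 fold changes of -5.43 ± 0.34 (SE) and -5.01 ± 0.31, and depleted replicate 5 kept the most signal. The background level was set on each array by the brightest of 27 control probe sets for Bacillus transcripts, which mouse RNA lacks. From 49.4% to 62.9% of an array's probe sets exceeded it. All 14 oocyte markers, such as Zp3 and Gdf9, lay above it on all 10 arrays. Of 11 granulosa and cumulus markers 7 did so, and their summed signal was 657 to 1501 in wild-type and 759 to 958 in depleted oocytes, against 63010.0 to 74007 for the oocyte markers. Among 10 tested granulosa markers 2 were called higher in the fit described below, Fshr and Nr5a2, and 0 lower. Of 7 theca markers 1 lay above background on all arrays and Col1a1 on none, and of 10 blood, immune and endothelial markers 3 did and Ptprc on none. The members described here are made by all of these cell types, and the part of other cells in their values was not tested.

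Few genes of the transcription machinery were called changed in CTCF-depleted oocytes, and those changes were small. Signals were compared as log2 values, a probe set was called when its limma p, adjusted over all 27022 tested probe sets by the Benjamini-Hochberg method, was under 0.05, and a gene's brightest probe set on average stood for the gene. Of the 46 genes tested 3 were called, or 6.52%, where 16.4% of all 13811 genes tested were called. The elongation factor gene Tcea1 rose, 1 gene against a share of 7.26% called higher among all genes. The cyclin genes Ccnt1 and Ccnh fell, 2 genes against 9.12% called lower. Counted as probe sets, 74 of the 82 passed the filter on low signals and 4 of these were called, 5.41% against 12.6% of all probe sets tested. Of the 4, 1 was higher (5.48% of all probe sets were called higher) and 3 lower (7.12% were called lower).

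The members also moved little in size. Their median log2 fold change was 0.0086 and that of all genes -0.017, and their median absolute log2 fold change was 0.069 against 0.16. Of the 46, 25 had a positive and 21 a negative value, from -0.45 for Ccnt1 to 0.29 for Taf7. The members were also measured closely: the median SE was 0.068, against 0.11 over all genes. For 35 members (76.1%) the 95% interval of the change lay within 1.25-fold in either direction, where this held for 34.7% of all genes. For 43 (93.5%) it lay within 1.5-fold, against 63.4% of all genes, and the other 3 were Taf7, Gtf2e1 and Ccnt1. These shares and the median absolute changes are a description, since a dim probe set has a noisier value and a wide interval whatever its change.

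**Figure D1:**
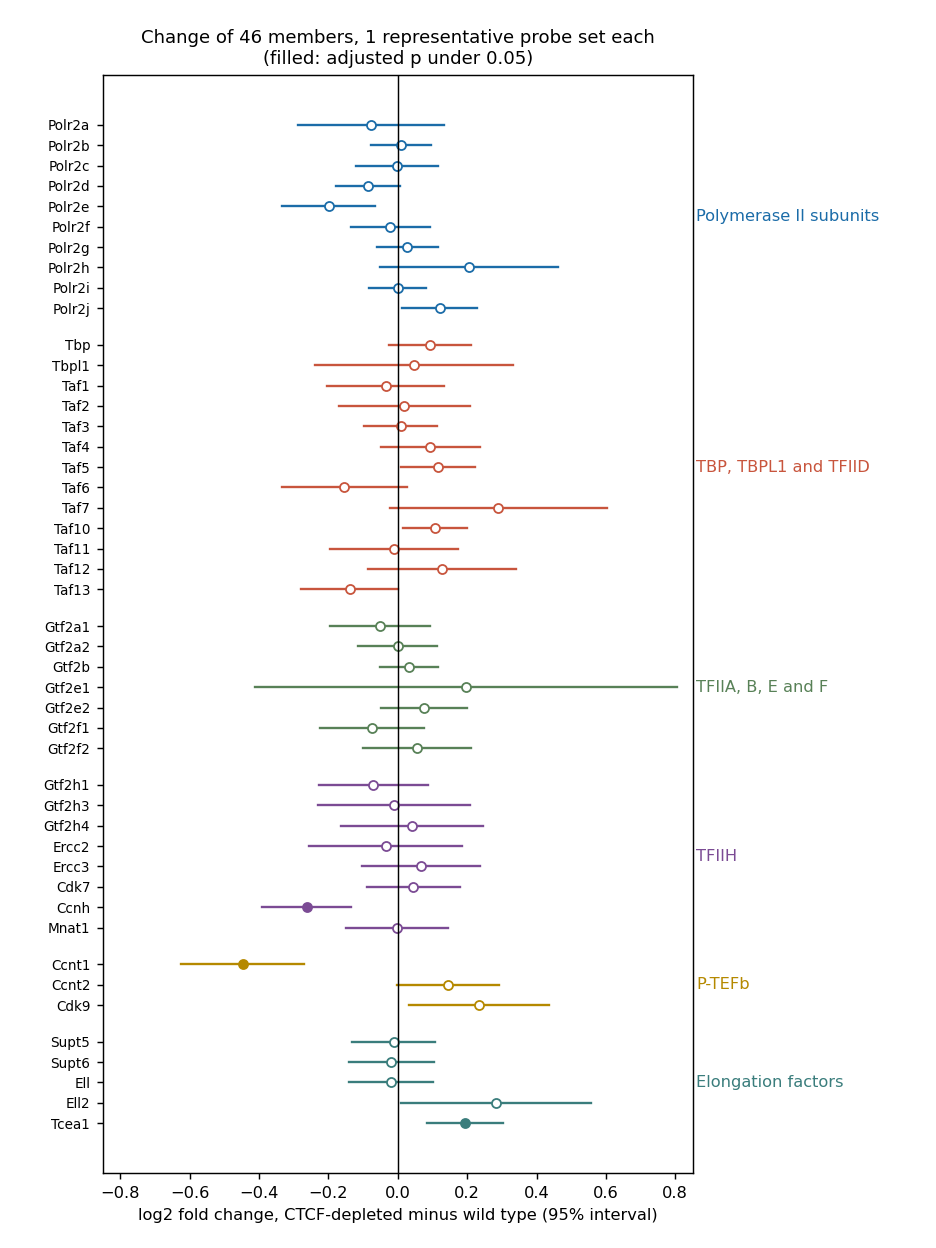
Log2 fold change (x axis, CTCF-depleted minus wild type) of the 46 members (rows), each on its representative probe set, with its 95% interval as a bar and the complex in colour. Filled points are the 3 called members, Ccnh and Ccnt1 to the left of 0 and Tcea1 to the right, and the widest bar is that of the dim Gtf2e1.

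No array stood apart over the whole set. The median deviation of the 46 members from their own means ran from -0.033 to 0.049 on the log2 scale over the 10 arrays, and the ends were wild-type replicate 1 and depleted replicate 2. Over all genes tested the same 2 arrays were the ends with opposite signs. There the median ran from -0.023 in depleted replicate 2 to 0.025 in wild-type replicate 1. Single members deviated more on single arrays: Taf7 by 0.74 on depleted replicate 2, Ell2 by -0.52 on wild-type replicate 1 and the dim Gtf2e1 by 0.79 on depleted replicate 3.

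**Figure D2:**
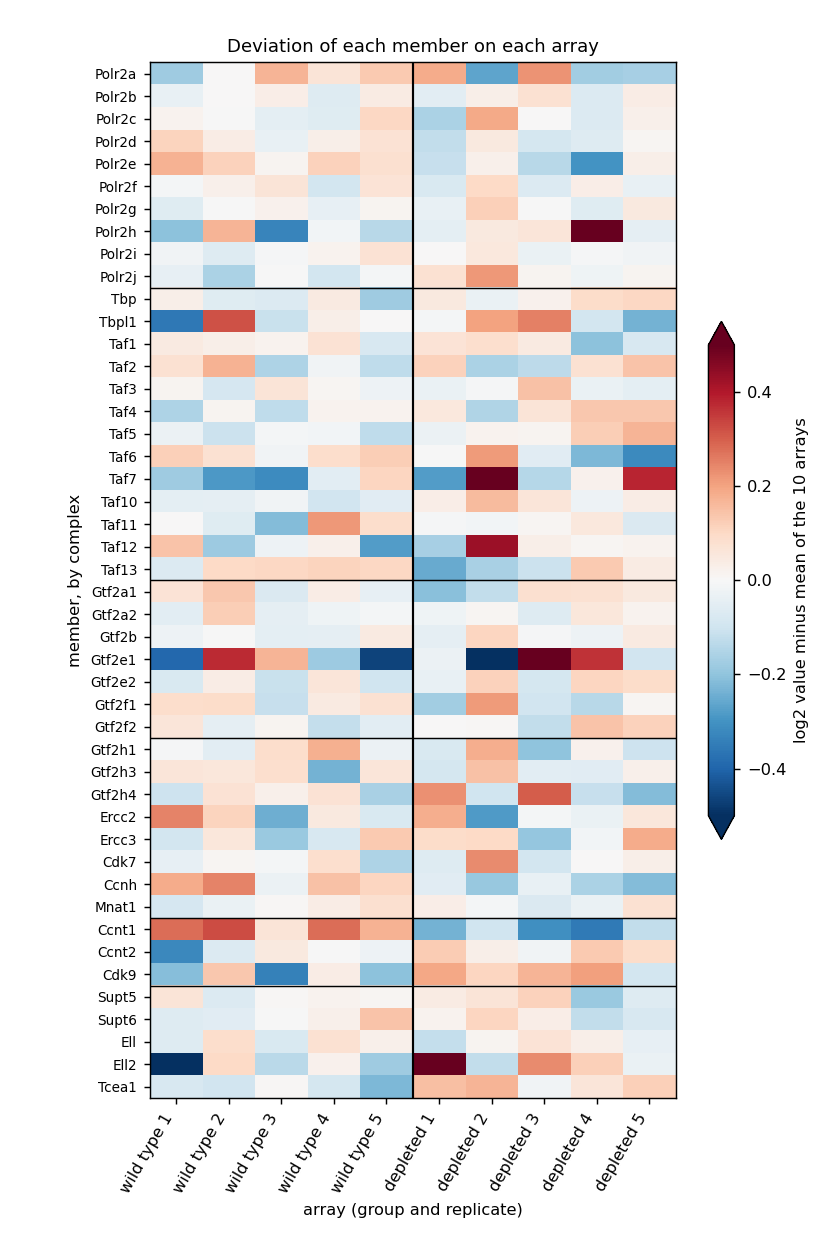
Log2 value of each of the 46 members (rows, by complex) on each of the 10 arrays (columns) minus the member's mean over all arrays, in red where higher and blue where lower. The row of Ccnt1 is red on all 5 wild-type and blue on all 5 depleted arrays, while most rows change colour within a group.

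Of the 12 polymerase subunits 10 were measured, and 0 were called, where 16.4% of all genes were. With so few genes, 0 called does not set the subunits apart. Their log2 fold changes ran from -0.20 for Polr2e to 0.21 for Polr2h, with a median of -0.0014. Polr2a encodes the largest subunit, which carries the catalytic centre and the repeated tail that the kinases phosphorylate. It read 309, 351, 394, 366 and 384 on the wild-type arrays and 398, 291, 409, 310.0 and 312 on the depleted ones. Both the highest and the lowest of these 10 signals were depleted arrays, so the groups overlapped fully, and the log2 fold change was -0.077 ± 0.099 (SE; 95% interval -0.29 to 0.13; limma adjusted p = 0.692). The second-largest subunit gene Polr2b and the genes Polr2c, Polr2g and Polr2i had narrower intervals, none reaching beyond -0.12 or 0.12.

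Polr2e, a subunit shared by RNA polymerases I, II and III, lay just outside the threshold. It read 1010.2, 969, 903, 968 and 946 in wild-type and 825, 909.7, 813, 726 and 914 in depleted oocytes. Of the depleted arrays 3 lay below all wild-type arrays and 2 just above the lowest of them, wild-type replicate 3. The log2 fold change was -0.20 ± 0.06 (SE), and the limma adjusted p was 0.0503. It was called without depleted replicate 2 (-0.23, adjusted p = 0.0245) and without depleted replicate 5 (-0.23, adjusted p = 0.0309), and under 6 of 10 other settings of the probe-set fit, with limma adjusted p-values from 0.0275 to 0.0480. It was not called with the arrays centred on their medians (-0.15, adjusted p = 0.208), with an offset of 1 (adjusted p = 0.0514), without a filter (adjusted p = 0.0818) or without an intensity trend (adjusted p = 0.141). Its other tested probe set was near background, at 18.8 ± 4.94 against 13.0 ± 5.05 (SD, n = 5), and gave -0.50 ± 0.26.

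Polr2j, another small subunit, read 2302, 2119.6, 2364, 2218 and 2351 in wild-type oocytes and 2496, 2752, 2390.3, 2329 and 2389 in depleted ones. The groups overlapped only through depleted replicate 4, and the log2 fold change of 0.12 ± 0.05 (SE) was not called (limma adjusted p = 0.144). Polr2h, also shared by the 3 polymerases, read 82.8, 108, 75.6, 94.8 and 86.8 against 92.4, 99.2, 99.8, 136 and 92.6. Its log2 fold change of 0.21 ± 0.12 was not called, and it was 0.11 without depleted replicate 4, its highest array.

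Of 13 measured genes of the TATA-binding proteins and TFIID, 9 had positive and 4 negative log2 fold changes, and 0 were called. Among all genes tested 16.4% were called. The median was 0.047 and the lowest adjusted p in limma 0.130. Tbp, the TATA-binding subunit, read 730.2, 686, 681, 737 and 632 in wild-type and 740.1, 699.7, 726, 761 and 768 in depleted oocytes. Of the depleted arrays 3 lay above all wild-type ones and 2 within their range, and the log2 fold change was 0.093 ± 0.056 (SE; 95% interval -0.027 to 0.21; limma adjusted p = 0.336). Tbpl1, a TBP relative that acts in male germ cells, was dim at 59.8 ± 10.6 against 61.6 ± 8.97 (SD, n = 5) and gave 0.047. Taf1, the largest TFIID subunit and its scaffold, gave -0.035 ± 0.080.

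Taf7, a TFIID subunit that binds TAF1, had uneven signals in depleted oocytes. It read 558, 517, 507, 607 and 679 on the wild-type arrays and 519.7, 1054, 571, 640.5 and 823 on the depleted ones. Only depleted replicates 2 and 5 lay above all wild-type arrays, and the log2 fold change of 0.29 ± 0.15 (SE) was not called (limma adjusted p = 0.235). It was 0.14 without depleted replicate 2 and 0.13 with the ratio of 3-prime to 5-prime control signal as a covariate. Its other probe sets gave 0.18 ± 0.09 and -0.042 ± 0.108, neither of them called. Depleted replicate 2, the highest array on the first of the 3, was not the highest on either of the others.

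The largest negative values in TFIID were those of Taf6 and Taf13, histone-fold subunits, at -0.15 ± 0.09 and -0.14 ± 0.07 (SE), with limma adjusted p-values of 0.279 and 0.198, and Taf6 gave -0.095 without depleted replicate 5. Taf13 read 1676, 1887, 1888, 1903 and 1889.9 in wild-type and 1479, 1575, 1636, 1925 and 1811 in depleted oocytes. Of the depleted arrays 3 lay below all wild-type ones, while depleted replicate 4 was the highest of the 10. Taf4, the subunit paralogous to the gonadal Taf4b, gave 0.093 ± 0.068 on its representative probe set and 0.25 ± 0.09 on the other. The latter had a limma adjusted p of 0.0913 and was called only when depleted replicate 1 was left out, among the 10 fits that each left out 1 array. Taf10, a subunit shared with the SAGA coactivator, gave 0.11 ± 0.04 and, on a dimmer probe set, -0.20 ± 0.11, and neither value was called. The remaining TFIID genes, Taf2, Taf3, Taf5, Taf11 and Taf12, ran from -0.012 to 0.13.

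The 7 genes of TFIIA, TFIIB, TFIIE and TFIIF had log2 fold changes from -0.075 for Gtf2f1 to 0.20 for Gtf2e1. Of these 0 were called, where 16.4% of all genes were, and so few genes do not set the group apart. Gtf2b, which encodes TFIIB, the bridge between TBP and the polymerase, was measured closely. It read 4009, 4081, 3946, 3959 and 4211 in wild-type and 3963, 4397, 4065, 4015 and 4214 in depleted oocytes. The groups overlapped in part, with wild-type replicates 3 and 4 below all depleted arrays and depleted replicates 2 and 5 above all wild-type ones, and the change was 0.031 ± 0.039 (SE; 95% interval -0.053 to 0.11). The TFIIA genes Gtf2a1 and Gtf2a2 gave -0.051 and 0.00031, and the TFIIF genes Gtf2f1 and Gtf2f2 -0.075 and 0.056. Of the TFIIE genes, Gtf2e2 gave 0.075 ± 0.058. Gtf2e1 lay above background on only 2 wild-type and 3 depleted arrays, at 6.63 ± 2.33 against 8.22 ± 3.80 (SD, n = 5), and its 95% interval ran from -0.41 to 0.81. With 1 array left out at a time, its value lay between 0.023, without depleted replicate 3, and 0.35, without depleted replicate 2. It was the single member whose representative probe set was not above background on all 10 arrays.

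Of 8 measured TFIIH genes, 1 was called lower and 0 higher, where 9.12% and 7.26% of all genes were. By sign alone 3 were higher and 5 lower. The called gene was Ccnh, which encodes cyclin H, the partner of CDK7 in the CDK-activating kinase. On its representative probe set, 1456293_s_at, it read 911, 951, 784, 886 and 862 in wild-type and 769.6, 702, 780.4, 717 and 688 in depleted oocytes. Every depleted array lay below every wild-type array, though depleted replicates 1 and 3 came close to wild-type replicate 3. The log2 fold change was -0.26 ± 0.06 (SE; 95% interval -0.39 to -0.13; limma adjusted p = 0.00793), and on that scale the level fell by 16.7%.

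Another Ccnh probe set, 1418584_at, read 479, 497, 451, 485 and 455 against 378, 438, 388, 404 and 366. Again no depleted array reached the wild-type range, and the log2 fold change was the same to 2 decimals, -0.26 ± 0.06 (limma adjusted p = 0.0103). The call on 1418584_at was lost when each array was centred on its median (-0.21, adjusted p = 0.0524), while that on 1456293_s_at was kept (-0.21, adjusted p = 0.0268). A further Ccnh probe set was near background, at 8.15 ± 2.16 against 5.33 ± 1.66 (SD, n = 5), and gave -0.45 ± 0.26. The 2 brighter Ccnh probe sets and 1 of Ccnt1 were the 3 of 74 member probe sets whose groups did not overlap, 4.05% against 11.1% of all probe sets tested.

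The partners of cyclin H were not called. Cdk7, the kinase, read 1274, 1319.7, 1302, 1393 and 1179.9 in wild-type and 1253, 1545, 1232, 1314 and 1341 in depleted oocytes. The groups overlapped in part, with wild-type replicate 5 the lowest and depleted replicate 2 the highest, and the log2 fold change was 0.045 ± 0.063 (SE; limma adjusted p = 0.719). Mnat1, the assembly factor that joins kinase and cyclin, gave -0.0019 ± 0.0692, with 196 ± 8.66 against 195 ± 8.01 (SD, n = 5). The helicase genes Ercc2 and Ercc3, which also serve in nucleotide excision repair, gave -0.035 ± 0.105 and 0.067 ± 0.081. The core subunits Gtf2h1, Gtf2h3 and Gtf2h4 gave -0.071, -0.011 and 0.040, and none of these was called. The other tested probe sets of Gtf2h4, dimmer but above background on all arrays, gave 0.18 ± 0.11 and 0.20 ± 0.13, not called either.

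In P-TEFb the cyclin T1 gene fell, and cyclin T2 and the kinase were not called. Ccnt1 read 176, 182, 152, 176 and 164 on the wild-type arrays and 122, 135, 117, 113 and 133 on the depleted ones, on probe set 1419313_at. The groups were apart, the highest depleted array lying below the lowest wild-type array. The log2 fold change was -0.45 ± 0.08 (SE; 95% interval -0.63 to -0.27; limma adjusted p = 0.00173). On that scale the level fell by 26.7%, and this was the largest change of any member. It stayed called without any 1 array, with values from -0.49 to -0.42.

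The other Ccnt1 probe set, 1456477_at, did not show this. It read 33.6, 39.8, 31.5, 27.2 and 28.9 in wild-type and 42.8, 29.7, 26.7, 28.1 and 29.4 in depleted oocytes, all above background. The groups overlapped fully, with depleted replicate 1 the highest of the 10, and the log2 fold change was -0.044 ± 0.154 (SE). The difference between the 2 probe sets was itself tested, as their log2 ratio on each array, and it was -0.40 ± 0.17 (95% interval -0.76 to -0.042; limma adjusted p = 0.353). The mean over both probe sets gave -0.25 ± 0.10 for Ccnt1, which was not called (limma adjusted p = 0.102). The call on Ccnt1 rests on 1 of its 2 probe sets.

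Ccnt2, the alternative cyclin, read 434, 518, 562, 542 and 534 in wild-type and 593, 554, 537, 595 and 579.5 in depleted oocytes. Wild-type replicate 1 was low, the other arrays overlapped, and the log2 fold change of 0.15 ± 0.07 (SE) was not called (limma adjusted p = 0.201) and was 0.084 without that array. Its 4 other tested probe sets gave values from -0.19 to 0.10. Cdk9, the kinase, read 178, 227, 163, 212 and 179 against 236, 223, 233, 239 and 194. Of the depleted arrays 3 lay above all wild-type ones, and the log2 fold change of 0.23 ± 0.10 was not called either (limma adjusted p = 0.128). The other tested Cdk9 probe set, above background on 0 wild-type arrays and 1 depleted array, gave -0.18 ± 0.34. The mean over both gave 0.028 ± 0.159.

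**Figure D3:**
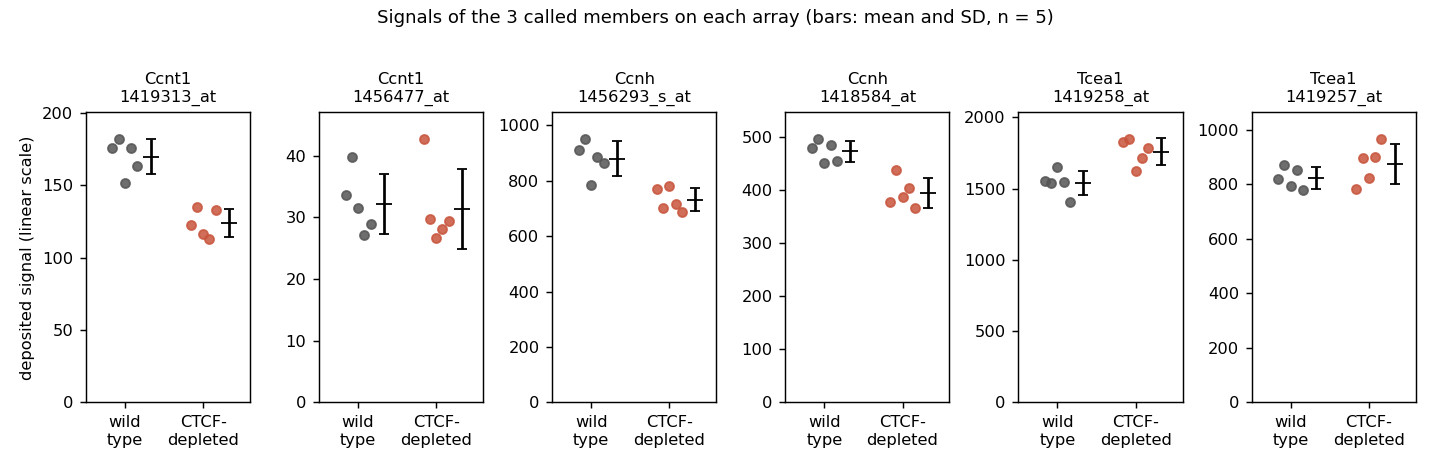
Deposited signal (y axis, linear, from 0) of Ccnt1, Ccnh and Tcea1 on each array (points) for wild-type and CTCF-depleted oocytes, with the mean and SD of 5 arrays as bars, for 2 probe sets of each gene. The groups are apart for Ccnt1 on 1419313_at and for Ccnh on both probe sets, and overlap for Ccnt1 on 1456477_at and for Tcea1 on both.

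The balance between partners within the cyclin-kinase complexes was compared as the difference of log2 values on each array. All 6 pairs in the CDK7 and CDK9 complexes entered, a comparison chosen after the values were seen. Each gene entered by its representative probe set, so Ccnt1 entered by 1419313_at and not by 1456477_at, which gave -0.044. Ccnt1 and Ccnh were already called on these arrays, so pairs that hold them are no independent support. Ratios within an array show unequal change and do not depend on the scaling of the array. Ccnt1 fell relative to Ccnt2 by 0.59 ± 0.12 (SE) on the log2 scale, and Cdk9 rose relative to Ccnt1 by 0.68 ± 0.11. In both pairs no depleted array overlapped the wild-type ones (exact permutation test, two-sided, p = 0.00794, and 0.0238 adjusted over the 6 pairs; groups of 5 allow no smaller unadjusted p). The difference between Cdk9 and Ccnt2 changed by 0.088 ± 0.122, which was not called (exact permutation p = 0.532).

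In the CDK7 complex the shifts were smaller. Cdk7 rose relative to Ccnh by 0.31 ± 0.10, and Ccnh fell relative to Mnat1 by 0.26 ± 0.08 (two-sided exact permutation p = 0.0317 and 0.0238, and 0.0476 adjusted over the 6 pairs for both). Each of these calls was lost when any 1 of 8 arrays was left out, all but replicate 3 of either group, with adjusted p-values up to 0.0952. Where the calls were lost, the changes were 0.24 to 0.35 for Cdk7 against Ccnh and -0.29 to -0.22 for Ccnh against Mnat1. Leaving out an array also makes the permutation test coarser. Even the pairs of Ccnt1 with Ccnt2 and Cdk9 then had adjusted permutation p-values up to 0.0476. Cdk7 against Mnat1 changed by 0.047 ± 0.081 (exact permutation p = 0.603).

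**Figure D4:**
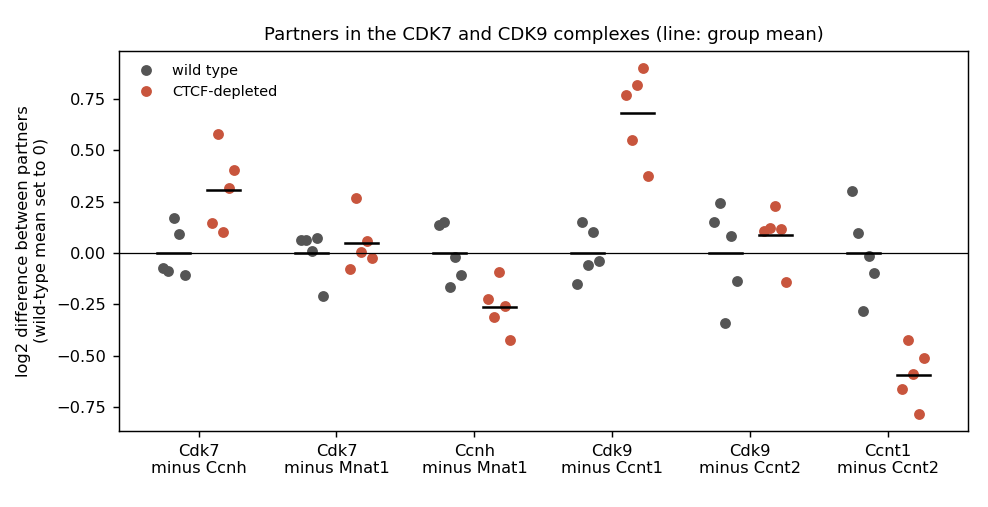
Difference of log2 values between partners (y axis, the wild-type mean of each pair set to 0) on each of the 5 wild-type and 5 CTCF-depleted arrays (points), with group means as lines, for the 6 pairs of the CDK7 and CDK9 complexes. The groups are apart for the pairs of Ccnt1 with Cdk9 and with Ccnt2, and overlap for the other 4. Each gene is shown on its representative probe set, 1419313_at for Ccnt1.

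The promoters of the 3 P-TEFb genes are shown because cyclin T1 was called and its partners were not, in cells depleted of a DNA-binding protein. They are RefSeq promoter windows of assembly GRCm38.p6, 250 bases before to 50 after the annotated start, 5′ to 3′ on the gene's strand. Capitals mark matches on either strand to a GC box (GGGCGG) or an ETS site (CCGGAA), some of which overlap.
Ccnt1, chr15:98567687-98567986, minus strand: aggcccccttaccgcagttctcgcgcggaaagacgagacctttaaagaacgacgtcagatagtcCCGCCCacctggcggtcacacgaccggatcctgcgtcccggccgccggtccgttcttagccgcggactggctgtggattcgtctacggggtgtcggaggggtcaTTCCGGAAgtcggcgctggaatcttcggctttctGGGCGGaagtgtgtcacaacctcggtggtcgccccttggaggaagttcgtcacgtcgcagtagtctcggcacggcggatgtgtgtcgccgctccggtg
Ccnt2, chr1:127773914-127774213, plus strand: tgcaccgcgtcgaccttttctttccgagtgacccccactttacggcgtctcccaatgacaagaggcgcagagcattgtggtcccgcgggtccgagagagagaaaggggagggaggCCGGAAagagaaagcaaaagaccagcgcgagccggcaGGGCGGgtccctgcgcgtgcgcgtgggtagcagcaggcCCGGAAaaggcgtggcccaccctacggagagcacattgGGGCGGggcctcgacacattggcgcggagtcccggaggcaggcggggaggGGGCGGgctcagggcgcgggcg
Cdk9, chr2:32712735-32713034, minus strand: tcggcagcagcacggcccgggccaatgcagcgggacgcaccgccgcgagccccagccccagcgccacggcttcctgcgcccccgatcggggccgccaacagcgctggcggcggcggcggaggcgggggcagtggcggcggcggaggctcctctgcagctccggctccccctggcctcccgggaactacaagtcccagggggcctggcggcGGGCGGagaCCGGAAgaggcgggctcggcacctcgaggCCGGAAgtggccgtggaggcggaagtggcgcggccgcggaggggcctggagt
Each of the 3 held both motifs, with 2, 3 and 1 GC boxes and 2 ETS matches apiece, and none held the CTCF core motif (CCA, any 2 bases, AG, any 2 bases, GGC, on either strand) or a TATA box (TATAAA). The table held windows for 42 of the 51 members, 47 windows in all, and not for Ccnh or Tcea1. The CTCF core was found in 1 of the 47 windows, that of Gtf2f1, or 2.13%, against 2.43% of 32851 windows counted over the genome. GC boxes stood in 70.2% of the members' windows against 35.7% of all, ETS matches in 51.1% against 14.9%, and TATA boxes in 17.0% against 13.6%. A match to letters is a description, and no match says only that these letters are not in this window.

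Of the 5 measured elongation factors 1 was called higher and 0 lower, where 7.26% and 9.12% of all genes were. By sign alone 2 were higher and 3 lower. Tcea1 encodes TFIIS, which lets an arrested polymerase cut its transcript and resume. On probe set 1419258_at it read 1556, 1539, 1649.6, 1545 and 1408 in wild-type and 1827, 1851, 1624, 1716 and 1785 in depleted oocytes. Of the depleted arrays 4 lay above all wild-type ones, and depleted replicate 3 was just below wild-type replicate 3. The log2 fold change was 0.19 ± 0.05 (SE; 95% interval 0.084 to 0.30; limma adjusted p = 0.0203).

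The call on Tcea1 was lost without wild-type replicate 5 (0.16, limma adjusted p = 0.0576) and without depleted replicate 1 (0.18, adjusted p = 0.0502). The other probe set, 1419257_at, read 819, 872, 792, 851 and 778 against 783, 897, 824, 901 and 967, and gave 0.086 ± 0.062, not called. The log2 ratio of 3-prime to 5-prime signal of the actin and Gapdh controls, a measure of RNA and labelling quality, was 2.80 to 3.11 in wild-type and 2.60 to 2.96 in depleted arrays. With that ratio as a covariate Tcea1 gave 0.16 (limma adjusted p = 0.0748), while Ccnt1 and Ccnh stayed called at -0.52 and -0.27.

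The other elongation factors were not called. Supt5, a subunit of the DSIF factor that P-TEFb phosphorylates, read 1524, 1389, 1462, 1476 and 1469 in wild-type and 1498, 1525, 1577, 1282 and 1391 in depleted oocytes, a log2 fold change of -0.012 ± 0.056 (SE). Supt6, a histone chaperone that travels with the polymerase, gave -0.018 ± 0.058, and Ell, which suppresses pausing, -0.019 ± 0.057. On its other tested probe set, dimmer but above background on all arrays, Ell gave -0.35 ± 0.20, not called. Ell2, its paralog, was more variable, with 84.7, 132, 111, 125 and 108 against 175, 113, 145, 133 and 119.8. Only 3 of its depleted arrays lay above all wild-type ones, and its log2 fold change of 0.28 ± 0.13 was not called (limma adjusted p = 0.181).

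Probe sets of the same member were also compared. For the 20 members with several tested probe sets, the change of the representative was set against that of each other one, 28 pairs in all, and 0 were called in limma, where 0.755% of all 9797 such pairs were. At an unadjusted p under 0.05 there were 3 pairs, in Ccnt1, Ccnt2 and Taf10. The signs of the values differed in 10 of the 28 pairs. With so low a share called over all pairs, 0 of 28 does not set the members apart. A pair that was not called is not thereby shown to agree.

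Genes that work beside these members were taken from lists of other transcription factors. Of 116 tested 8 were called higher and 7 lower, 12.9% against the 16.4% of all genes. With the arrays centred on their medians 12 were called higher and 3 lower. Leaving out wild-type replicate 1 left 5 called higher. Leaving out wild-type replicate 2, wild-type replicate 3 or depleted replicate 3 left 4 called lower. Of 5 tested paralogs found in germ cells or tissues, 0 were called higher and 1 lower. This was Tcea3, a TFIIS relative, which read 659.9 ± 35.4 in wild-type and 539 ± 49.7 in depleted oocytes (SD, n = 5). Its log2 fold change was -0.29 ± 0.07 (SE), with a limma adjusted p of 0.0072. Tcea1 and Tcea3, both TFIIS genes, were thus called in opposite directions. Taf4b, the gonadal TAF4 paralog, gave -0.0054, Gtf2a1l, a germ-cell TFIIA gene, 0.10, Taf9b 0.26 and Tcea2 -0.042, none of them called. Taf7l was not above background on any array. The listed paralogs Tbpl2, Ell3 and Supt4b had no probe set that carried their symbol alone and were not measured here.

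Of 25 genes of pausing and elongation 3 rose and 0 fell, and the median log2 fold change was 0.11. Nelfcd, a subunit of the pausing factor NELF, rose by 0.25 ± 0.07 (SE), Eaf1, a partner of ELL, by 0.40 ± 0.12, and Elob, elongin B, by 0.31 ± 0.07. The other probe sets of Eaf1 and Elob gave 0.44 and 0.27. Of 9 phosphatases and readers of the polymerase tail, 0 were called in either direction. Of 13 further factors, from TFIID, TFIIH, polymerase assembly, relatives of TFII-I and others, 23.1% were called, against 16.4% of all genes. Gpn1, a GTPase of polymerase import, rose by 0.21 ± 0.04 (0.017 on its other probe set). Rpap1, another assembly factor, fell, with a log2 fold change of -0.27 ± 0.07 (-0.098 on its other probe set). Gtf2ird1, a relative of TFII-I, also fell, with -0.93 ± 0.09 (-0.84 on its other probe set).

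Among 32 genes of RNA polymerases I and III, 3 were called higher and 2 lower, 15.6% against 16.4% of all genes. Znrd1, a polymerase I subunit, rose 1.41-fold from 920.0 ± 53.2 to 1299 ± 70.0 (SD, n = 5), Taf1c 1.62-fold and Taf1a 1.11-fold, the last 2 being parts of the polymerase I initiation factor SL1. The falls were in Polr3k, a polymerase III subunit, and Gtf3c6, of TFIIIC. Polr3k had a log2 fold change of -0.21 ± 0.06 (SE; 0.040 on 1 of its other 3 probe sets). Gtf3c6 had -0.29 ± 0.08 (-0.054 on its other probe set). Of 32 genes of Mediator, the bridge between activators and polymerase II, 9.4% were called. Med19 rose by 0.33 and Med20 and Med14 fell, with -0.18 and -0.20, although the other 4 Med14 probe sets gave positive values. These lists were described by their counts only, and no difference between them and the members was tested.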

How the data were processed

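Total RNA of oocytes was purified with a Picopure kit and biotin-labelled by a small-sample protocol, per the labels' protocols. The deposited table holds linear intensity values, 1 for each probe set on each array. The submitters' processing notes name MAS5; its version and settings are not given in the sources used here. Each array's deposited intensity values had a mean of 150.0 after 2% was trimmed at either end, a common scale. The platform annotation gave 34945 probe sets 1 gene symbol, 932 several and 9160 none.

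An offset of 2.47 (percentile 25 of the signals) was added before taking log2, so changes of dim genes come out too small. The 64 control probe sets were left out, and so were dim ones, below percentile 40 of mean log2 value or a signal near 5.13. Groups, taken from the sample titles, were fitted with limma 3.58.1 under R 4.3.3 (lmFit, then eBayes with an intensity trend) over 27022 probe sets, with Benjamini-Hochberg adjustment, and the 95% intervals come from that fit. Pairs of probe sets of 1 gene were compared likewise over 9797 pairs. Exact permutation tests used scipy 1.17.1. The fits were tested on simulated data. The promoter motif counts left out 1 chromosome.

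The members, lists and tests were chosen with earlier results of these data known. Full values are given for members with a called probe set, the up to 3 largest changes of each complex, and a core gene of each complex; of the context lists, for called genes and germ-line paralogs. Some other members are given in full beyond that rule and were chosen after their values were seen. Alternatives were other offsets, filters, scalings and variance models, weights for arrays, a replicate block, the control ratio as a covariate, the mean over probe sets and leaving out each array. An uncalled value counted as having changed sign only if it moved by more than its SE.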

Additional observations from a re-analysis of the deposited data

Results flagged for a closer look

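On 4 of 56 groups of 5 arrays, for 28 probe sets of the named members, 1 array lay far from the others by Dixon's ratio, its gap to the nearest array over the whole range; chance gives about 1 in 20 groups. For Taf13 wild-type replicate 1 read 1676 against 1887 for the next (ratio 0.932). For Polr2h depleted replicate 4 read 136 against 99.8 (ratio 0.832), and for Ccnt1 on 1456477_at depleted replicate 1 read 42.8 against 29.7 (ratio 0.813). For Gtf2f1 wild-type replicate 3 read 821 against 917 (ratio 0.753). None of these 4 probe sets was called.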

How the results depend on the processing

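Ccnt1 on 1419313_at and Ccnh on 1456293_s_at kept their direction and call under every alternative fit of probe sets. Over the mean of each gene's probe sets only 1 member was called lower, Ccnh, and 0 higher. No member probe set was called higher without an intensity trend in the variance (0 probe sets, 0 genes). With the control ratio as a covariate 0 probe sets and 0 genes were called higher and 5 probe sets lower. Polr2a (0.061) and Cdk7 (-0.044) changed sign in that fit without being called. With single arrays left out, 0 to 1 probe sets and 0 to 1 genes were called higher. In these fits 3 to 4 probe sets and 2 to 3 genes were called lower, and 0 pairs of probe sets were called different. The causes were not tested. The replicate numbers were not taken as pairs because no label says that they pair samples. Deviations of same-numbered arrays of the 2 groups had correlations from 0.0024 to 0.051, which do not settle whether samples were paired. With the replicate block 3 member genes were called lower, Polr2e being added. Centring on medians moved the median of all probe sets from -0.021 to 0.030. Over all probe sets it called 2095 higher and 1421 lower, against 1481 and 1925. Median centring ended the call on Ccnh 1418584_at (-0.21, limma adjusted p = 0.0524). Context genes called went from 8 higher and 7 lower to 12 and 3 under median centring and to 6 and 4 without a trend, and to 5 to 8 higher and 4 to 8 lower with single arrays left out. Signal near background limited Gtf2e1.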
